A study of Mus musculus with 6 samples.

Results

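Homeobox genes of mouse LSK cells are described here by the cytosines listed nearest to their transcription starts. The sites were chosen by gene name: Uncx, or a name that begins with Hox, Lhx, Pax, Nkx, Irx, Dlx, Msx, Meis, Pbx, Pitx, Otx, Emx, Gbx, Barx, Alx, Cux, Onecut, Pou, Tshz, Satb, Tlx or Vax and goes on with its number, or one of the form of Six2, with Pax5 left out. This gave 149 of the 6756 listed cytosines, nearest to 60 named genes on 18 chromosomes. The names included 2 non-coding transcripts, Msx1as and Vax2os2. LSK cells, which lack lineage markers and carry Sca-1 and Kit, hold the haematopoietic stem and progenitor cells. They were sorted from the bone marrow of Tet1 KO mice and of WT mice, 3 samples of each genotype, all 6 months old and of the strain written as CD57BL/6. The labels give neither the Tet1 allele nor whether each sample was 1 mouse. Methylation was measured by ERRBS, an enhanced form of reduced representation bisulfite sequencing. The assay reads mostly CpG-rich stretches, and bisulfite treatment leaves 5-methylcytosine and 5-hydroxymethylcytosine alike.

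The authors' deposited tables give 1 value per cytosine, the difference in methylation, Tet1 KO minus WT, in percentage points (points below), listed from 25 points upwards in either direction. List names and signs gave the direction. Values per sample, coverage and p-values were not used here. The depth behind each difference is therefore unknown, no spread between samples could be set beside it, and no difference below was tested against replicates. The intervals given are exact Clopper-Pearson 95% intervals and cover counting error only. A gene name means the nearest annotated start, and the cytosines read without reaching the lists were not used here. The identity of the sorted cells could not be checked against marker genes, because the tables hold no expression values. Tet1 itself was nearest to 0 listed sites.

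Homeobox genes encode transcription factors that bind DNA through a homeodomain and set the identity of body segments, organs and cell types in the embryo. Their starts are mostly rich in CpG, and in cells that do not use them many are held silent by Polycomb complexes. The Hox genes stand side by side in 4 clusters, and several of them, with their TALE-class partners of the Meis and Pbx families, act in blood stem cells. TET1 oxidises 5-methylcytosine, a step towards its removal.

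Sites were listed beside 58 of the 143 protein-coding genes of the RefSeq table that carry these names (40.6%, 32.4 to 49.1%). Over all protein-coding genes of that table the share was 13.7%. Of the Hox genes, 4 of 39 were nearest to a listed site (10.3%, 2.87 to 24.2%), a share near the 13.7% of all genes, which lies inside its interval. Outside the clusters, the share was 54 of 104 genes (51.9%). The CUT class, with Cux, Onecut and Satb genes, had 6 of 7 genes listed, the LIM class 5 of 8, the TALE class 8 of 13 and the paired class 10 of 17. All 6 Irx genes and all 3 Onecut genes were listed, whereas the POU class had 4 of 16. Pou2af1, a coactivator without a homeodomain, also carries a name of that form. Members were taken by name, and whether each of them encodes a homeodomain was not checked. The share of listed genes moves with how many cytosines were read near each gene, and its part in these counts was not tested. In the 300-base windows that RefSeq sequence gives around the starts, the median number of CpGs was 20.5 for 52 windows of 41 listed homeobox genes, 17.0 for 114 windows of 92 homeobox genes of the name rule, listed or not, and 7 for all 32851 windows. The family as a whole thus stood above all windows. Its windows include those of the listed genes, and the unlisted genes were not set apart.

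**Figure D1:**
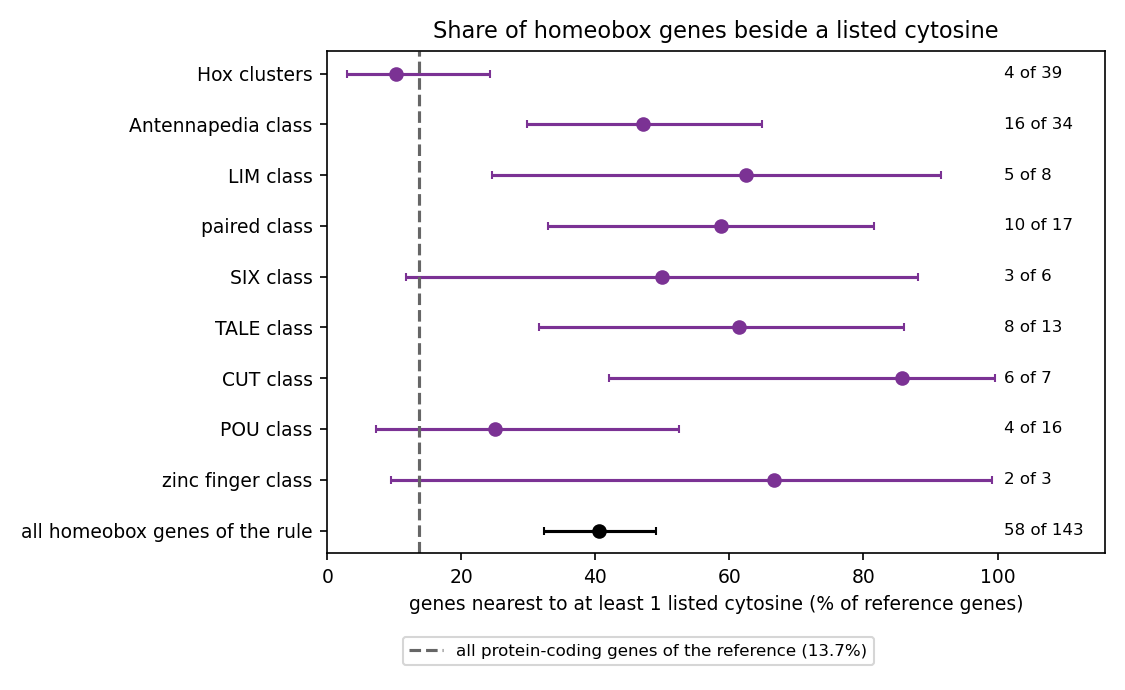
Share of reference homeobox genes nearest to at least 1 listed cytosine (x axis, percent), by homeobox class (rows), with exact 95% intervals as bars and the counts at the right; the dashed line is the share over all protein-coding genes, 13.7%. The Hox clusters lie at 10.3%, below the line but with an interval that spans it, and every class but the Hox clusters and the POU class lies at 47.1% or above.

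Hypermethylation prevailed in the family as in the whole series. Of the 149 sites, 143 were hypermethylated in Tet1 KO cells (96.0%, 91.4 to 98.5%), against 92.8% of all listed sites. By gene, 55 of 60 names had hypermethylated sites alone (91.7%), against 87.0% of all genes in the tables. The median listed difference of the hypermethylated sites was 39.0 points in the authors' deposited table (range 25.6 to 83.9), beside 41.1 points over all hypermethylated sites. At least 60 points were reached by 12 of the 143 homeobox sites (8.39%, 4.41 to 14.2%) and by 12.3% of all hypermethylated sites. The homeobox sites thus lay near the general level in direction and size. By class, the median ran from 36.2 points in the Antennapedia class to 44.7 points in the LIM class, with wide overlap of the single sites.

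**Figure D2:**
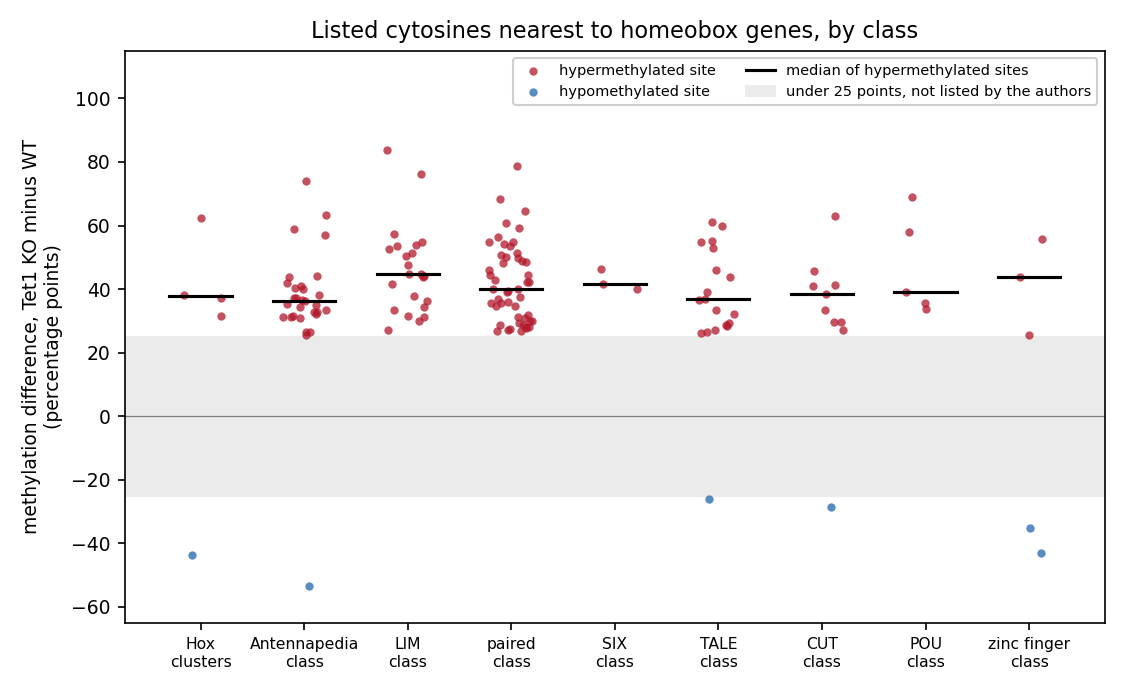
Methylation difference of each listed site, Tet1 KO minus WT (y axis, percentage points), by homeobox class (x axis); red points are hypermethylated sites, blue points hypomethylated sites, black lines medians of the hypermethylated sites, and the grey band the range that was not listed. The 143 red points lie between 25.6 and 83.9 points across the classes, and the 6 blue points fall in 5 classes.

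The Hox clusters, whose genes pattern the body axis, had listed sites beside 10.3% of their genes, near the share of 13.7% over all protein-coding genes. The 11 Hoxa genes had 0 listed sites (upper limit of the interval 28.5% of genes). The Hoxb, Hoxc and Hoxd genes had 5 sites between them, 4 hypermethylated and 1 hypomethylated. Hoxb1, a hindbrain patterning gene, was nearest to a site 41779 bp downstream of its start on chromosome 11 (96268851, mm9), with 62.4 points in the authors' deposited table. Hoxb1 is the last gene at that end of the Hoxb cluster, so this site lay towards Skap1 and not among Hox genes. Hoxc4 had a site 6277 bp upstream of its start with 31.5 points in the deposited table, between genes on chromosome 15 (102858549). Hoxd13, which shapes digits, had a site 1046 bp upstream at chromosome 2, 74505321 (37.3 points in the same table). Hoxd1 was nearest to sites of both directions. The first, at 38.3 points in the authors' deposited table, lay 16498 bp upstream of Hoxd1 in exon 3 of 3 of Hoxd3 (chromosome 2, 74584539). The second was listed at -43.5 points, 27184 bp downstream on the side of Mtx2 (chromosome 2, 74628221). Thus 2 of the 5 sites stood among the Hox genes and 3 on the flanks. In the same neighbourhoods, outside the name rule, Hotair, a non-coding RNA gene of the Hoxc cluster, had an exonic site at 34.0 points, and Evx2, the homeobox gene beside Hoxd13, an exonic site at 42.9 points in the deposited table.

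Paired-class genes carried the most sites, 49, all hypermethylated. Uncx, a gene of the paraxial mesoderm, had 16 sites on chromosome 5 in 4 regions, where neighbouring sites of equal sign under 1000 bp apart make a region. All 16 lay downstream of its start. A region of 9 sites at 140056301 to 140056990 averaged 50.8 points in the authors' deposited table and ran from 36.1 to 78.6. A farther region of 4 sites at 140069419 to 140069785 averaged 56.2 points (51.3 to 64.6), and the nearest, of 2 sites at 140031355 to 140031360, averaged 33.1 points in the same table. The region with the lowest mean thus stood closest to the gene, though it holds 2 sites alone.

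Pax7, which muscle stem cells depend on, was nearest to 13 sites on both sides of its start on chromosome 4. A region of 7 sites 18409 to 19537 bp upstream (139407292 to 139408420) averaged 43.4 points in the authors' deposited table, with a range of 27.0 to 59.3. In intron 7 of 8, 3 sites within 31 bp averaged 49.8 points, while 2 sites in intron 4 of 8 were listed at 31.1 and 30.8 points in that table. Pitx1, a gene of hindlimb and pituitary development, had 9 intergenic sites on chromosome 13. The region of 4 sites at 56063735 to 56064507, 130949 to 131721 bp upstream, averaged 43.0 points in the deposited table and reached 60.9, whereas 2 sites 17973 and 17990 bp downstream stood at 28.6 points each. Other listed members of the class included Alx4, Pax2, Pax6, Pax8 and Pax9, with 1 to 3 sites each. Pax2, which acts in the kidney and eye, had the highest of these, 54.8 points in the authors' deposited table, in intron 3 of 9.

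LIM-class genes encode homeodomain factors with paired zinc-binding LIM domains. Lhx5, a forebrain gene, had 12 sites on chromosome 5, 11 of them upstream and 1 in exon 5 of 5, in the 3′ UTR (31.1 points in the authors' deposited table). The upstream sites ran from 50571 to 143817 bp from the start. Their highest region, of 3 sites at 120754228 to 120754267, averaged 62.4 points and reached 76.1 in that table. Lhx3, which specifies pituitary cells and motor neurons, was the single LIM gene with promoter sites. Those 5 sites, 195 to 552 bp upstream of the start at chromosome 2, 26062271 to 26062628, were listed at 27.0, 38.0, 34.3, 51.4 and 53.4 points in the authors' deposited table. The value rose with distance from the start at all but 1 step. The 3 farthest sites lie within 50 bp on the strand opposite to the others, and can come from the same reads. Lhx3 also had the highest difference of the family, 83.9 points in the authors' deposited table, at its transcription termination site (26055285). A neighbour 171 bp away on the other strand was listed at 44.7 points. Lhx2, Lhx4 and Lhx9 had 1 site each, between 36.4 and 44.2 points in the same table.

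Promoter sites were held by Gbx2 and Vax2os2 besides Lhx3, with 1 site each. Gbx2, which positions the boundary between midbrain and hindbrain, had its site 339 bp upstream at chromosome 1, 91828090 (36.6 points in the authors' deposited table). Vax2os2, a non-coding transcript beside the eye gene Vax2, had a site 996 bp upstream on chromosome 6 (44.0 points in the deposited table). The sequences around the starts of Gbx2 and Lhx3 are shown because, among the protein-coding genes of the name rule, promoter sites were listed at these genes alone. They run from 250 bases before to 50 bases after the start on the strand of the gene, from RefSeq on build GRCm38.p6, with every CpG, the dinucleotide that carries the methylation, in capitals. The Gbx2 window is chr1:89931127-89931426 (minus strand), and the windows of the 2 starts of Lhx3 are chr2:26206526-26206825 and chr2:26208200-26208499 (minus strand).
Gbx2: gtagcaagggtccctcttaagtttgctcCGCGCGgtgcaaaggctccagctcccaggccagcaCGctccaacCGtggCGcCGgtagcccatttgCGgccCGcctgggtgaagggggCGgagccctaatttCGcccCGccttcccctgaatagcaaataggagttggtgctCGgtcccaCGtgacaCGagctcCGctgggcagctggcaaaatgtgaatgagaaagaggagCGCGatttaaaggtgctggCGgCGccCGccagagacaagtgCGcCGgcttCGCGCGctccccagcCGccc
Lhx3, start at the lower coordinate: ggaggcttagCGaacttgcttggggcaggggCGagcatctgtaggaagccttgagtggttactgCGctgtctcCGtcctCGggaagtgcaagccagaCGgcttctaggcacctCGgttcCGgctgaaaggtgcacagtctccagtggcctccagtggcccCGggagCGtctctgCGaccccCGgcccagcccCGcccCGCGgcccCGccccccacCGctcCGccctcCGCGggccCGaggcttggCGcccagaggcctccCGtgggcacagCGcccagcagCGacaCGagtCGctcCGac
Lhx3, start at the higher coordinate: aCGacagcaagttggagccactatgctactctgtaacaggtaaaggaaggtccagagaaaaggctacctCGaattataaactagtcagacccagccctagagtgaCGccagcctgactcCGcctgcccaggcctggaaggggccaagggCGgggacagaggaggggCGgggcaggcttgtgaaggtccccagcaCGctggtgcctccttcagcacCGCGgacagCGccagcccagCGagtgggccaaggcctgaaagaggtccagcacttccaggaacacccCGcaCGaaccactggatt
The Gbx2 window holds 27 CpGs, and the Lhx3 windows hold 28 and 13. The motif CG occurs in 94.6% of all 300-base windows. CCGG, which reads alike on both strands, contains a CG and is the usual cutting site in reduced representation sequencing, occurs 2 times in the Gbx2 window and 3 times and 0 times in the Lhx3 windows. It is found in 76.9% of the windows of listed homeobox genes and in 52.8% of all windows. Over the windows of all homeobox genes of the name rule, which include the listed ones, the share is 78.1%. The listed windows thus did not stand above those of the family. The authors' annotation names the same Lhx3 transcript for all its listed sites. Which of the Lhx3 windows shown holds the start of that transcript was not determined. The files use another build, so the listed sites were not placed in these windows by position. The windows reach 250 bases before a start. By the deposited distances, the Gbx2 site at 339 bp and the Lhx3 sites at 343 to 552 bp upstream lie outside that reach. The Lhx3 site at 195 bp lies within it.

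Antennapedia-class genes outside the Hox clusters had 30 sites, 29 of them hypermethylated. Nkx6-1, a gene of motor neurons and pancreatic beta cells, had 4 intergenic sites downstream of its start on chromosome 5. They were listed at 63.2 and 57.0 points about 18.0 kb away and at 59.0 points 125384 bp away in the authors' deposited table, while the site at 88374 bp had the lowest of the 4 values. Nkx6-2, a gene of oligodendrocytes, had 4 sites within 5307 bp of its starts on chromosome 7. The site 1190 bp upstream (146769886) stood at 73.9 points in the deposited table, and the others at 32.7, 37.2 and 43.8 points. Among the Dlx genes of forebrain and limb, Dlx1 had a single site, hypomethylated at -53.3 points in the authors' deposited table. It lay 23683 bp upstream in intron 1 of 9 of Metap1d (chromosome 2, 71343819). Its neighbour Dlx2 had 1 site at 31.0 points, and Dlx3 and Dlx4, also neighbours, had 5 hypermethylated sites from 25.6 to 37.2 points in the same table. The 3 sites of Dlx4 were in an intron of the antisense transcript Dlx4os.

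TALE-class genes had 19 sites, 17 of them beside Irx genes, which stand in 2 groups of neighbouring genes on chromosomes 8 and 13. Irx3, a patterning gene of the neural tube and heart, had 7 sites, all between genes and 53873 to 115232 bp downstream, with 26.2 to 53.0 points in the authors' deposited table. Irx6 had a site at 61.0 points in its intron 4 of 5 and, more than 124 kb upstream, sites of opposite direction. These were listed at 33.3 points and, in an LTR repeat, at -26.0 points in the authors' deposited tables, 32731 bp apart. The single site of Meis3 (54.9 points) lay in exon 10 of 10 of Slc8a2. Meis1, the Meis gene best known in blood stem cells and leukaemia, was nearest to 0 listed sites.

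CUT-class genes had 10 sites. Cux2, a gene of cortical neurons, had both directions within intron 2 of 22 on chromosome 5. A site with a CpG island label was listed at 27.3 percentage points, and another 53913 bp away at -28.6 points in the authors' deposited tables. Satb1, a chromatin organiser of T cells and stem cells, had 1 site 443 bp downstream of a start, labelled as CpG island (29.7 points in the deposited table). Onecut1, a liver and pancreas gene, had sites at 41.4 and 63.0 points in intron 1 of 1. POU-class sites included 1 beside Pou5f1, the pluripotency gene, at 58.1 points and 15619 bp upstream in the authors' deposited table. Of the zinc finger class, Tshz3 had 2 adjacent hypomethylated sites at -43.1 and -35.0 points and 1 hypermethylated site at 43.9 points in the deposited tables, 366993 to 471049 bp from its start. In all, 5 genes had a hypomethylated site: Cux2, Dlx1, Hoxd1, Irx6 and Tshz3. All 6 hypomethylated sites lay at least 23683 bp from the start. Over all 486 hypomethylated sites the median distance was 22.6 kb, and 18.3% lay within 5000 bp of a start. Of the sine oculis class, Six2, Six3 and Six6 had 1 site each, between 40.1 and 46.4 points in the authors' deposited table.

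The positions of the homeobox sites differed from those of the whole list. Sites between genes made up 97 of the 143 hypermethylated homeobox sites (67.8%, 59.5 to 75.4%), against 36.1% (34.9 to 37.3%) of all hypermethylated sites. Exons held 4.20% against 19.6%, introns 21.0% against 31.3% and promoters 4.90% against 11.2%. Without Uncx, Pax7 and Lhx5, the 3 genes with the most sites, the share between genes was 60.8% (50.6 to 70.3%) of 102 sites. These shares were not tested against the other genes, and neighbouring sites are not independent. CpG island labels, which the files give to intron and intergenic sites, marked 5 of 127 such homeobox sites (3.94%) and 6.36% of all. Repeat labels were on 2.10% of the hypermethylated homeobox sites and 7.11% of all.

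**Figure D3:**
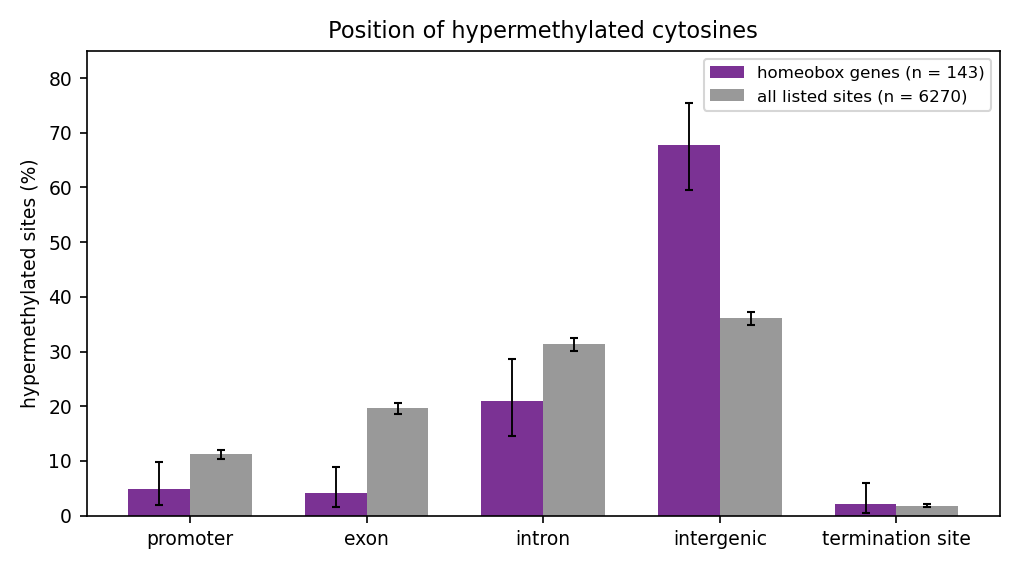
Share of hypermethylated cytosines (y axis, percent) by the authors' annotation (x axis) for the 143 sites of homeobox genes, left, and all 6270 listed sites, right; bars carry exact 95% intervals. Sites between genes reach 67.8% for homeobox genes and 36.1% for all sites, and the exon bars stand the other way, at 4.20% and 19.6%.

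The sites also stood farther from the starts. The median distance was 19.4 kb for hypermethylated homeobox sites and 6.84 kb for all hypermethylated sites. Within 5000 bp of a start were 35 of the 143 sites (24.5%, 17.7 to 32.4%), against 45.9% of all, and within 1000 bp 12 (8.39%), against 26.3%. Beyond 50 kb were 45 sites (31.5%), against 18.9% of all. Upstream and downstream sites were nearly balanced, with 74 of 143 downstream (51.7%), beside 63.1% of all. Of the 46 hypermethylated sites placed in a promoter, transcript or termination site, 39 belonged to the gene that gave the site its name. The other sites lay in Dlx4os, Slc25a21, Hoxd3, Sfxn5 and Slc8a2. How far apart the starts of neighbouring genes stand was not measured, and its part in these distances was not tested.

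**Figure D4:**
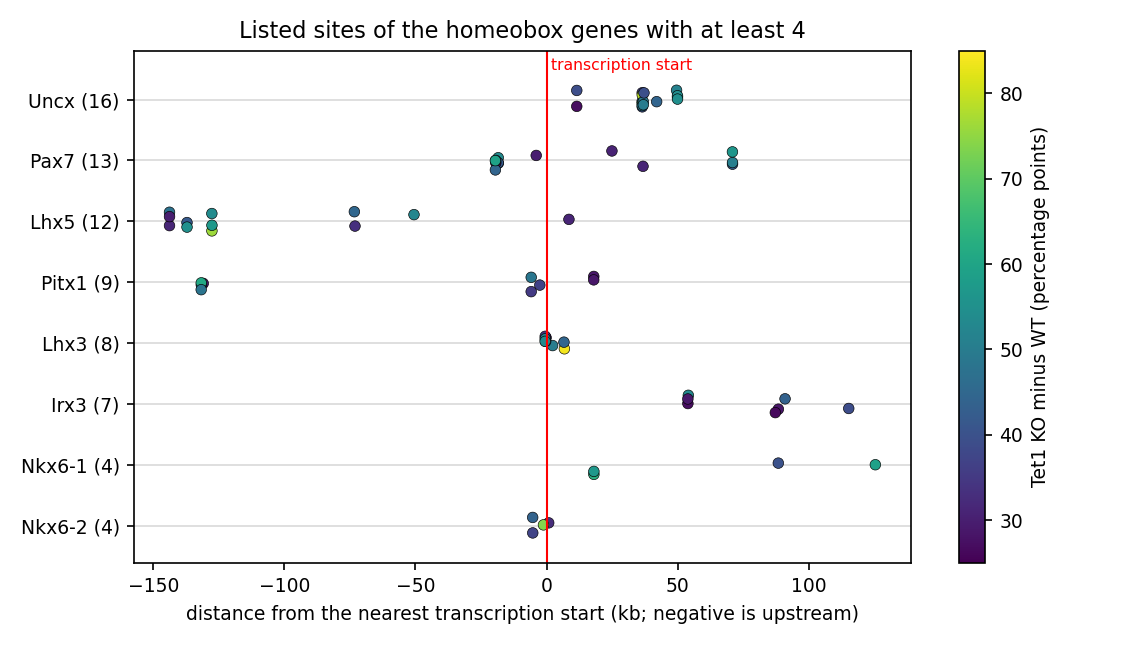
Distance of each listed site from the nearest transcription start (x axis, kb, upstream negative) for the 8 homeobox genes with at least 4 sites (rows, number of sites in brackets); colour gives the difference, Tet1 KO minus WT, in percentage points. Uncx, Irx3 and Nkx6-1 have all their sites downstream, 11 of the 12 sites of Lhx5 lie upstream, and the sites of Lhx3 and Nkx6-2 stay within 6.8 kb.

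The 8 genes with at least 4 sites, Uncx, Pax7, Lhx5, Pitx1, Lhx3, Irx3, Nkx6-1 and Nkx6-2, held 73 of the 149 sites (49.0%), and 35 genes had a single site each. The 34 hypermethylated single sites had a median of 36.5 points in the authors' deposited table (26.4 to 62.4). Joined into regions, the 143 hypermethylated sites formed 95 regions, of which 24 held at least 2 sites (25.3%, beside 31.8% of all hypermethylated regions). Sites on the same strand less than 50 bp apart, the length of a read, can come from the same reads. Counted once, they left 112 groups of the 149 sites.

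Lists of related genes gave a frame for the family. Of 71 other homeobox genes outside the name rule, sites were listed beside 27 (38.0%, against 13.7% of all protein-coding genes). Hypermethylated sites alone were found at 25 of these 27 genes, beside a share of 87.0% over all genes in the tables. Their 71 hypermethylated sites had a median of 37.3 points in the authors' deposited table. Hmx1, an eye and ear gene, had 11 sites with a mean of 40.9 points, and Barhl2, a neural gene, had 8 with a mean of 42.8 points in that table. Zhx2 had a single site, hypomethylated at -35.3 points in the same table. Of 44 Polycomb and Trithorax genes, whose products control the Hox clusters, 5 were listed (11.4%), near the 13.7% of all genes. They were Bcor, Cbx8, Kdm2b, Kdm6b and Phc2. The 2 sites of the histone demethylase gene Kdm6b had the highest mean of these, 57.5 points in the authors' deposited table. They lay 8054 and 8069 bp from its start with equal values, and whether they share reads was not tested. Bcor had sites of both directions, at 28.0 and -34.2 points in the deposited tables.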

How the data were processed

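Bisulfite-converted DNA of 6 LSK samples (3 Tet1 KO, 3 WT) was sequenced by the authors with 50 bp reads, per the labels' protocols. The submitters' processing notes name Bismark and mm9, with no version. Not given in the sources used here are the caller of differences, its coverage minimum and how samples were combined. The deposited tables hold, per the file headers, a methylation difference in percentage points per cytosine (below 0 for hypomethylation) and the authors' distance in base pairs to the nearest start. They have 0 columns for single samples, so no test per site was made, and the depth per sample is unknown.

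Positions are those of the site identifiers, 1 bp below the start column (mm9). The deposited sign of the distance follows the strand of the site. After it was turned on the reverse strand, all 2546 sites within a transcript of their nearest start lay downstream of it, so upstream and downstream could be given. The name of the nearest gene is the authors' own, and classes were set by name prefix. The reference genes, their order and the genes of annotated transcripts came from RefSeq (GRCm38.p6), never positions of sites.

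The members and lists were chosen with earlier results of these data known. Named were Hox genes, genes with at least 4 sites, a promoter or hypomethylated site, or a difference of at least 70 points; other genes were picked as examples after their values were seen. Of 73 entries for other homeobox genes, 71 were found. Python 3.11.15, pandas 2.3.3 and scipy 1.17.1 were used. Joining and the name rule were tested on simulated data. No set test was made. Some genes of the family are not reported here by name. Alternatives were a threshold of 40 points, forward-strand sites, autosomes, regions, sites within 50 kb, other joining distances and left-out genes.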

Additional observations from a re-analysis of the deposited data

How the results depend on the processing

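No paired analysis was possible because the tables hold 1 difference per cytosine and no values per sample; for the same reason leaving out single replicates was not run. At a threshold of 40 percentage points the median of the hypermethylated homeobox sites was 50.5 points, the share within 5000 bp of a start was 17.6%, the share of listed homeobox genes 21.0% (7.59% over all protein-coding genes) and the number of regions 46. The threshold itself removes the smaller differences. With forward-strand sites alone, the share of listed genes was 25.2% (8.20% over all) and the regions numbered 50, since fewer sites were counted. Without Uncx, Pax7 and Lhx5, a choice made after seeing the data, 33.3% of the sites lay within 5000 bp, against 24.5% with them. The other 33 planned and 11 added values stayed within the interval of the reported value or, for region counts, within 1.5 times of it. Many of them could hardly move, since leaving out the X chromosome or Vax2os2 removed 1 site each. The share between genes was 60.8 to 72.1% under the alternatives tried. For the Hox clusters, 4 hypermethylated of 5 sites carry an interval of 28.4 to 99.5%. It is so wide that 50.0% at the threshold of 40 points counted as within it. With autosomes, regions or sites within 50 kb the Hox share stayed at 80.0%, because no Hox site was left out or joined. Unknown depth limits every single difference.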

Other observations

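For none of the 149 homeobox sites was the cytosine on the other strand of the same CpG also listed, whereas 114 of the 6756 listed sites (1.69%) had both strands listed. In an interval for counting error alone, 0 of 149 allows a share of up to 2.45%. Each homeobox CpG was therefore listed for a single strand, and whether the other strand was read was not tested.

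Nkx2-9, a gene of the ventral neural tube, and Pax9, a gene of teeth and thymus, stand near each other on chromosome 12 and had 1 and 3 sites, all hypermethylated and between 27.7 and 35.1 points in the authors' deposited table. The farthest of them lay in an intron of Slc25a21, 129183 bp from the start of Pax9.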
